A study of Homo sapiens with 12 samples.

Results

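The 5 kinesin-3 genes KIF1A, KIF1B, KIF1C, KIF13A and KIF13B, of 22036 gene names on the array, were represented by 510 of 913055 exon and junction probe sets. Every probe set whose single gene symbol in the platform annotation was 1 of these names was taken, which gave 139 for KIF1A, 129 for KIF1B, 47 for KIF1C, 106 for KIF13A and 89 for KIF13B. Of the 510, 271 measured an exon and 239 measured an exon-exon junction. The family was chosen by the splicing indices of KIF1B against control, as this gene held probe sets that changed relative to the rest of it with each hairpin. KIF1B against control is therefore a description, without a test. The other 4 genes, and all differences between hairpins, were tested.

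Kinesin-3 motors walk along microtubules towards the plus end and carry membrane cargo over long distances. They share an N-terminal motor and a forkhead-associated domain, and their tails, which differ, take up the cargo. KIF1A carries precursors of synaptic vesicles in neurons. KIF1B is made in isoforms with a common motor part and different tails, one known for mitochondria and one for synaptic vesicle precursors. KIF1C moves integrin-containing and secretory vesicles, KIF13A works on endosomes and carries the mannose-6-phosphate receptor through the AP-1 adaptor, and KIF13B, also called GAKIN, binds the scaffold protein DLG1. Which isoform each probe set belongs to, and the probes' coordinates and sequences, were not used here.

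The cells were 293T, a human embryonic kidney cell line expressing SV40 large T antigen, in 4 groups of 3 arrays each. Cells of 3 groups carried a lentiviral short hairpin RNA against RBFOX2, a splicing regulator that binds GCAUG elements, and are named shRNA1 (TRCN0000074544), shRNA2 (TRCN0000074546) and shRNA3 (TRCN0000074543). The control group carried the non-target hairpin SHC016. All groups were selected in puromycin at 1 ug/mL from 48 hours after infection for 10 days, and RNA was taken from the whole culture, so that fewer cells making a transcript and less of it per cell cannot be told apart. The labels number the replicates but do not say that they were separate cultures. A p-value here therefore covers the spread among the arrays alone, and that spread may be technical.

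Array medians lay between log2 7.24 and 7.27, and correlations between arrays across probe sets between 0.991 and 0.995. RBFOX2 itself, the silenced gene, was at log2 8.59, 8.54 and 8.51 in shRNA1 cells, at 9.10, 9.11 and 9.16 in shRNA2 cells and at 8.82, 8.84 and 8.85 in shRNA3 cells, against 9.59, 9.58 and 9.58 in control, so that no knockdown array overlapped the control arrays. Its depth of silencing followed the order shRNA1, shRNA3, shRNA2, with changes of -1.04, -0.74 and -0.46. All 8 of 8 listed genes that the HEK293 lineage is known to express had most probe sets above the level cutoff of log2 6.53, and none of 4 blood cell and 3 endothelial markers did. Of 7 neuronal markers 4 did (SYP, RBFOX3, SLC17A7 and GAD1), of 5 fibroblast markers 2 (COL1A1 and COL1A2) and of 4 hepatocyte markers 1 (APOA1). The mean level over the neuronal list lay between 6.46 and 6.51 in shRNA1 cells, 6.45 and 6.53 in shRNA2 cells and 6.45 and 6.49 in shRNA3 cells, against 6.46 in each control array.

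A probe set was kept where its 12-array mean exceeded that cutoff, the 40th percentile of the array, which left 435 of the 510. The 75 dim ones were 9 of KIF1A, 19 of KIF1B, 23 of KIF13A and 24 of KIF13B, and all 47 of KIF1C were kept. A gene value is the mean log2 level of its kept probe sets. The splicing index of a probe set is its log2 level on an array minus the mean of all other kept probe sets belonging to that gene, and shows unequal change within a gene. Levels are not compared between genes or between probe sets, because each probe has its own brightness.

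KIF1B gene values were higher in all 9 knockdown arrays. They were 9.58, 9.60 and 9.54 in shRNA1 cells, 9.45, 9.58 and 9.62 in shRNA2 cells and 9.63, 9.61 and 9.62 in shRNA3 cells, against 9.20, 9.31 and 9.30 in control. The lowest knockdown array, shRNA2 replicate 1, stood above the highest control array. The changes were 0.30, 0.28 and 0.34 (SE 0.05 each) with shRNA1, shRNA2 and shRNA3, or 1.23-, 1.21- and 1.27-fold. The hairpins, compared with each other, differed by -0.02 for shRNA2 minus shRNA1 (95% interval -0.12 to 0.07), by 0.04 for shRNA3 minus shRNA1 (-0.06 to 0.14) and by 0.07 for shRNA3 minus shRNA2 (-0.03 to 0.16), with limma adjusted p-values of 0.852, 0.523 and 0.419.

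**Figure D1:**
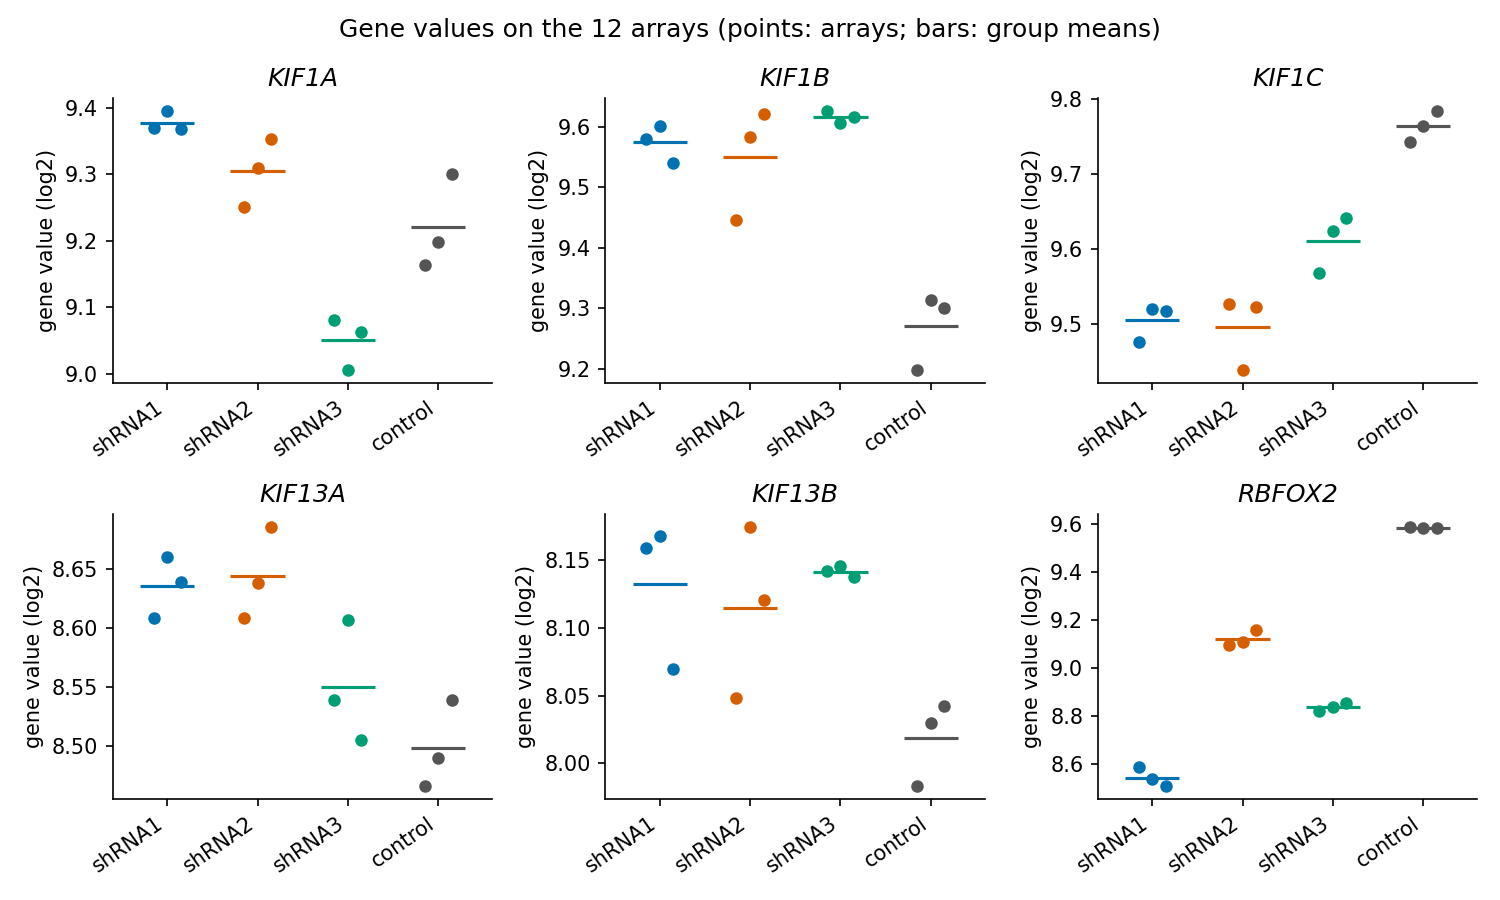
Gene values (log2) of the 5 kinesin-3 genes and of RBFOX2, 1 panel per gene with its own axis. Each point is an array, the bars are means of 3 arrays, and the groups run shRNA1, shRNA2, shRNA3, control; KIF1B stands above control and KIF1C below control in every knockdown array, and KIF1A is highest with shRNA1 and lowest with shRNA3.

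That KIF1B gene value was an average over stretches that behaved differently. The 59 kept exon probe sets, put in the order of their identifier numbers, were divided into 3 runs after the values were seen. The borders were set by the exon probe sets called lower by splicing index with all 3 hairpins. That the second run was low relative to the gene is therefore fixed by this choice, and the runs are a description. The first run held 24 kept probe sets (PSR01001955.hg.1 to PSR01001989.hg.1) and lay close to control, with median level changes of 0.05, 0.06 and 0.07 with shRNA1, shRNA2 and shRNA3. Its mean level was 8.85 ± 0.03, 8.87 ± 0.10 and 8.84 ± 0.04 with the 3 hairpins, against 8.80 ± 0.09 in control (SD, n = 3 each), so that the groups overlapped.

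The second run was 3 neighbouring probe sets, PSR01001990.hg.1, PSR01001991.hg.1 and PSR01001992.hg.1, all lower. Their mean level was 7.77 ± 0.07, 7.97 ± 0.11 and 7.69 ± 0.21 with shRNA1, shRNA2 and shRNA3, against 8.56 ± 0.08 in control (SD, n = 3 each). The median changes were -0.80, -0.60 and -0.84, which is 1.74-, 1.51- and 1.79-fold lower. Without shRNA3 replicate 1, the lowest array, the mean change with shRNA3 was -0.75 in place of -0.87.

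The third run, all the kept exon probe sets after these (32, PSR01001993.hg.1 to PSR01002028.hg.1), was higher with each hairpin in 32 of 32 cases. Of kept probe sets over all genes, 30.0% were higher with all 3 hairpins. Median changes were 0.53, 0.47 and 0.63, or 1.44-, 1.38- and 1.55-fold, and for 31 of the 32 every knockdown array stood above every control array, beside 3.71% of 423239 kept probe sets over all genes. Its mean level was 10.22 ± 0.03, 10.15 ± 0.11 and 10.32 ± 0.01 with shRNA1, shRNA2 and shRNA3, against 9.71 ± 0.06 in control (SD, n = 3 each). In single probe sets the changes of this run overlapped those of the first with shRNA1 and shRNA2. With shRNA1 the lowest change here was 0.12, and the highest in the first run 0.25. With shRNA2 these were 0.16 and 0.43, and with shRNA3 0.23 and 0.21.

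**Figure D2:**
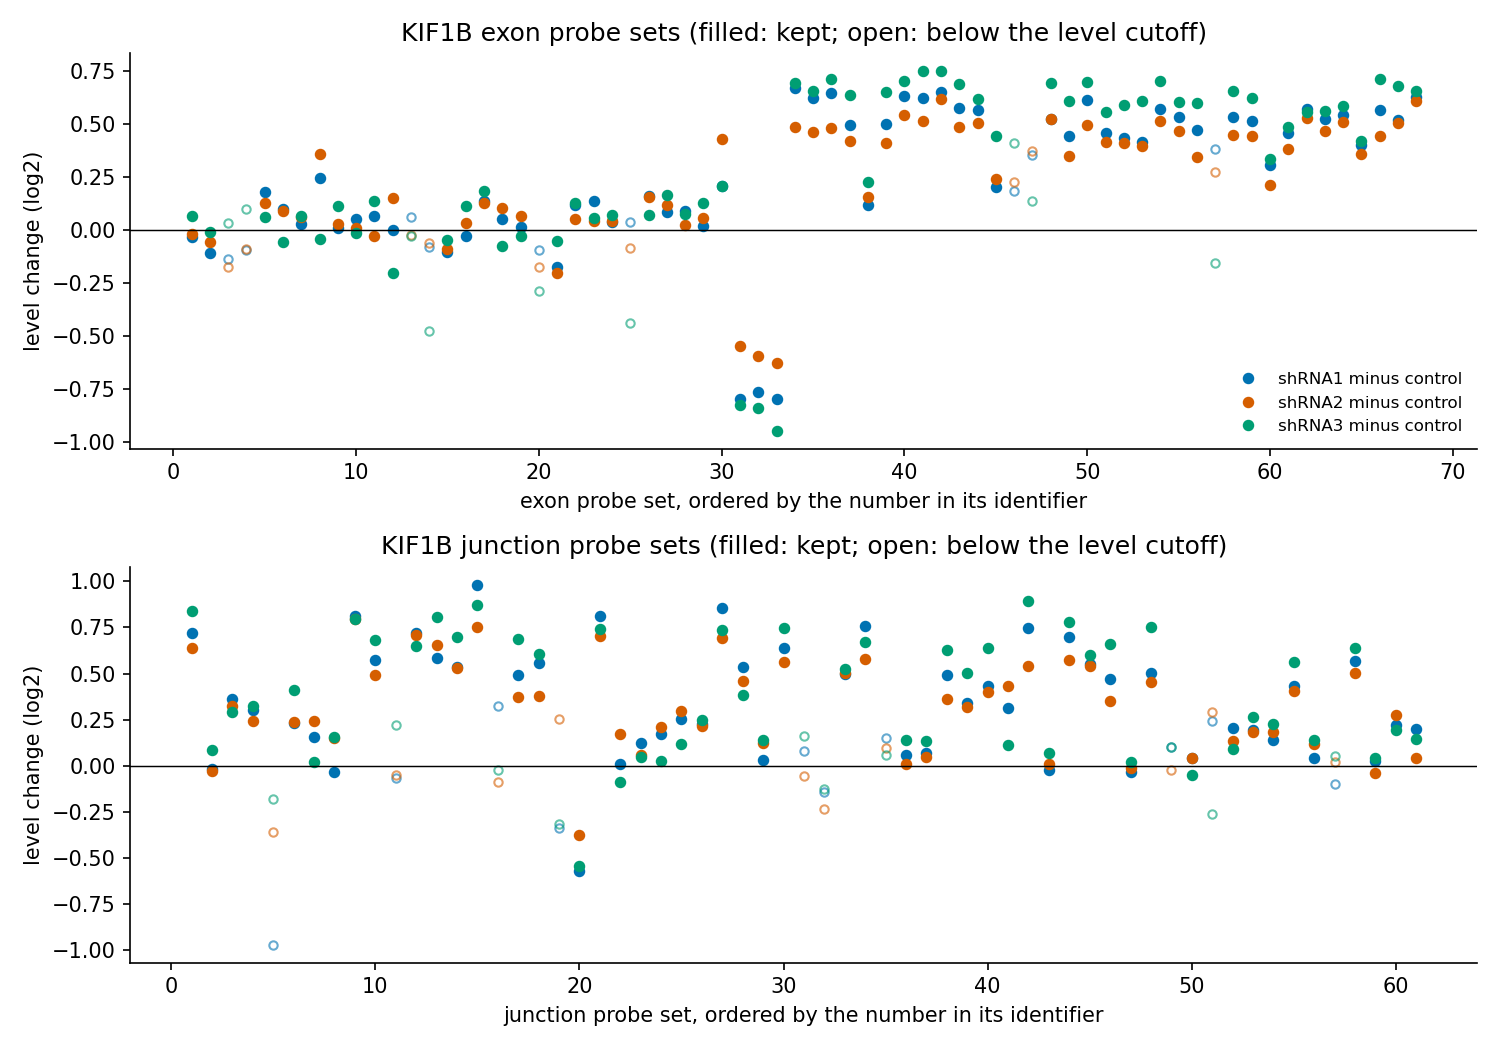
Level change (log2, hairpin minus control) of each KIF1B exon probe set (top) and junction probe set (bottom), in the order of identifier numbers, which is not a scale of distance. Filled points are kept probe sets, open points lie below the level cutoff, and colours mark shRNA1, shRNA2 and shRNA3; the exon probe sets run near 0, then drop at 3 neighbours to between -0.55 and -0.95, and the kept ones after these are all above 0.

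Identifier numbers were checked as a guide to order between genes. Over 813 genes on the plus strand of chromosome 1, KIF1B's chromosome and strand, the numbers followed gene order with a Spearman rho of 0.993, and 99.5% of neighbouring pairs were in order (RefSeq names on GRCh38.p14, used for gene order alone). KIF1B's numbers lay between those of UBE4B and PGD. Order within a gene is not stated in the sources used here, so the runs are runs of numbers, and no run was assigned to an isoform.

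The 4 KIF1B probe sets that changed relative to the gene with each of the 3 hairpins were those 3 exon probe sets and 1 junction. Across all 417377 probe sets with a splicing index, 0.0386% were called with all 3 hairpins in the same direction (adjusted p below 0.05 and at least 1.5-fold in each comparison), and 0.0244% were called lower. These are the values that chose the family, and all comparisons use the same 3 control arrays, so nothing is read from the count. PSR01001990.hg.1 was at log2 8.82, 8.70 and 8.82 in shRNA1 cells, 9.12, 8.84 and 9.12 in shRNA2 cells and 8.54, 8.80 and 8.90 in shRNA3 cells, against 9.57, 9.55 and 9.61 in control. All 9 knockdown arrays were below the 3 control arrays. Its splicing index changed by -1.11, -0.83 and -1.18 (SE 0.11 each), which is 2.16-, 1.78- and 2.27-fold lower relative to the rest of the gene.

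PSR01001991.hg.1 was at 7.87, 7.61 and 7.63 in shRNA1 cells, 7.86, 7.92 and 7.84 in shRNA2 cells and 7.40, 7.69 and 7.80 in shRNA3 cells, against 8.54, 8.38 and 8.48 in control. PSR01001992.hg.1, the dimmest of the 4, was at 6.87, 6.88 and 6.75 in shRNA1 cells, 7.24, 6.81 and 6.96 in shRNA2 cells and 6.40, 6.85 and 6.79 in shRNA3 cells, against 7.55, 7.50 and 7.84 in control. In both, the groups did not overlap, and shRNA3 replicate 1 was the lowest array and lay below the level cutoff for PSR01001992.hg.1. Splicing index changes were -1.08, -0.88 and -1.19 (SE 0.11) for PSR01001991.hg.1 and -1.11, -0.91 and -1.30 (SE 0.15) for PSR01001992.hg.1 with shRNA1, shRNA2 and shRNA3.

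The junction JUC01001061.hg.1 was at 9.22, 9.27 and 9.35 in shRNA1 cells, 9.54, 9.22 and 9.66 in shRNA2 cells and 9.32, 9.22 and 9.37 in shRNA3 cells, against 9.80, 9.77 and 9.98 in control. All knockdown arrays were again below all control arrays, with shRNA2 replicate 3 the closest to them. Its splicing index changed by -0.88, -0.66 and -0.90 (SE 0.11 each). Of 51 kept KIF1B junctions it was the 1 junction lower in level with all 3 hairpins, while 43 were higher with all 3. Over all genes, 29.5% of 423239 kept probe sets, exons and junctions together, were lower with all 3 and 30.0% higher. In a separate count that disregards sign, 7 of the junctions moved by less than 1.1-fold with each hairpin, and these can be among the 43. The junction medians were 0.34, 0.32 and 0.39.

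**Figure D3:**
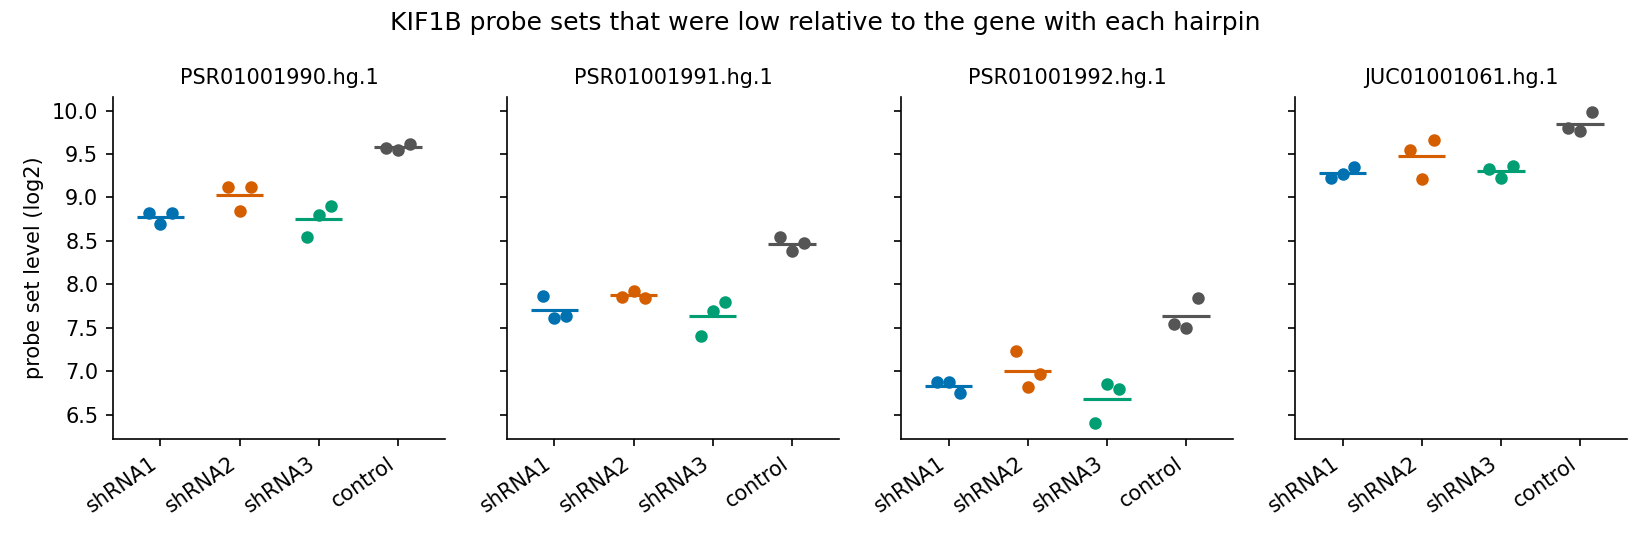
Level (log2) of the 4 KIF1B probe sets that were low relative to the gene, on the 12 arrays, with groups in the order shRNA1, shRNA2, shRNA3, control. Points are arrays and bars are means of 3; every knockdown array lies below every control array in each panel.

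Of those 51 junctions, 6 were at least 1.5-fold higher with all 3 hairpins. The share of all probe sets that rose so far was not counted, so nothing is read from this number. JUC01001056.hg.1 showed the highest average change in splicing index among KIF1B probe sets and was at 7.71, 7.52 and 7.83 in shRNA1 cells, 7.63, 7.33 and 7.39 in shRNA2 cells and 7.71, 7.53 and 7.49 in shRNA3 cells, against 6.36, 6.71 and 7.04 in control. Its level changes were 0.98, 0.75 and 0.87, and the groups did not overlap, although the control arrays were spread. JUC01001050.hg.1 was at 10.81, 11.10 and 10.96 in shRNA1 cells, 10.89, 10.88 and 11.04 in shRNA2 cells and 11.09, 10.94 and 10.77 in shRNA3 cells, against 10.17, 10.23 and 10.02 in control. JUC01001068.hg.1 was higher in level by 0.86, 0.69 and 0.74. None of these 3 was called by splicing index, with changes of 0.40 to 0.69, while the gene value was higher too. By splicing index JUC01001050.hg.1 was 1.43-, 1.43- and 1.37-fold higher and JUC01001068.hg.1 1.47-, 1.34- and 1.32-fold higher, all under the 1.5-fold limit. The adjusted p was below 0.05 only for JUC01001050.hg.1 with shRNA2 and JUC01001068.hg.1 with shRNA1, so the other comparisons missed that limit too. JUC01001068.hg.1 was called with shRNA1 without shRNA1 replicate 1 (0.67) and with the median of the other probe sets as reference (0.60).

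For the KIF1B probe sets called against control, no difference in splicing index between hairpins passed. Each of them changed least with shRNA2, the hairpin that silenced RBFOX2 least. Each changed most with shRNA3, the hairpin of intermediate RBFOX2 level, and not with shRNA1, which silenced RBFOX2 most. Whether the size of the change followed the depth of silencing was not tested. Between shRNA3 and shRNA2, whose RBFOX2 levels differ, the splicing indices of PSR01001990.hg.1, PSR01001991.hg.1, PSR01001992.hg.1 and JUC01001061.hg.1 differed by -0.35, -0.31, -0.39 and -0.24, with adjusted p-values of 0.236, 0.272, 0.299 and 0.370. Between shRNA2 and shRNA1 they differed by 0.28, 0.19, 0.20 and 0.22 (adjusted p between 0.711 and 0.888), and between shRNA3 and shRNA1 by -0.07, -0.12, -0.19 and -0.02 (adjusted p between 0.655 and 0.967). No KIF1B probe set was called between hairpins, against 0.0177%, 0.00311% and 0.0189% of all probe sets for shRNA2 minus shRNA1, shRNA3 minus shRNA1 and shRNA3 minus shRNA2.

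The KIF1B calls against control chose the family, so what follows describes how they depend on arrays and settings and is no support for them. The KIF1B calls with shRNA3, and those of PSR01001990.hg.1, PSR01001991.hg.1 and JUC01001061.hg.1 with shRNA1, held in every alternative tried that kept the probe set. The calls with shRNA2, and that of PSR01001992.hg.1 with shRNA1, did not. Without control replicate 3, none of the 4 was called with all 3 hairpins and none with shRNA2. Without control replicate 1, shRNA2 replicate 2 or shRNA2 replicate 3, 2 of the 4 were called with all 3 hairpins, and with arrays blocked by replicate number 3 were, PSR01001992.hg.1 being lost with shRNA2. PSR01001992.hg.1 lost its call with shRNA1 without control replicate 1 or 3, shRNA1 replicate 2 or 3, and when dim probe sets were not filtered out. The mean level changes of the 3 exon probe sets stayed between -0.83 and -0.74 with shRNA1, between -0.64 and -0.53 with shRNA2 and between -0.94 and -0.75 with shRNA3 when each array was left out in turn.

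KIF1C, which carries integrins and secretory vesicles, fell with each hairpin. Gene values were 9.48, 9.52 and 9.52 in shRNA1 cells, 9.53, 9.44 and 9.52 in shRNA2 cells and 9.57, 9.62 and 9.64 in shRNA3 cells, against 9.74, 9.76 and 9.78 in control. No knockdown array reached the control arrays. The changes were -0.26, -0.27 and -0.15 (SE 0.04 each), or 83.6%, 83.1% and 90.0% of control, with adjusted p-values of 0.000873, 0.000575 and 0.00733 (limma, over 16648 genes). Of all genes, 4.07%, 8.63% and 14.8% were called lower with shRNA1, shRNA2 and shRNA3, and 2.17% with all 3.

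The fall of KIF1C was spread over the gene. Of its 47 probe sets, 47, 45 and 42 were lower with shRNA1, shRNA2 and shRNA3, with median changes of -0.25, -0.26 and -0.13. With all 3 hairpins 41 of 47 were lower, or 87.2%, beside 29.5% of 423239 probe sets over all genes. In 26 of the 47 every knockdown array lay below every control array, beside 4.14% over all genes. No KIF1C probe set was called by splicing index in any comparison. The furthest below the gene was junction JUC17000418.hg.1, at -0.24, -0.41 and -0.22 (adjusted p 0.414, 0.0995 and 0.377). The furthest above was JUC17000419.hg.1, at 0.15, 0.40 and 0.25, where only shRNA2 had an adjusted p below 0.05 (0.0423) and the change was 1.32-fold.

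The smaller KIF1C change with shRNA3 was not separated from those of the other hairpins. It differed from shRNA1 by 0.11 (95% interval 0.03 to 0.18, adjusted p 0.0719) and from shRNA2 by 0.12 (0.04 to 0.19, adjusted p 0.0833), and shRNA2 from shRNA1 by -0.01 (-0.08 to 0.07, adjusted p 0.940). With only these arrays in the fit, shRNA3 minus shRNA1 had an adjusted p of 0.0487. With the median in place of the mean as gene value, the fall with shRNA3 was -0.13 and no longer passed (adjusted p 0.190).

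**Figure D4:**
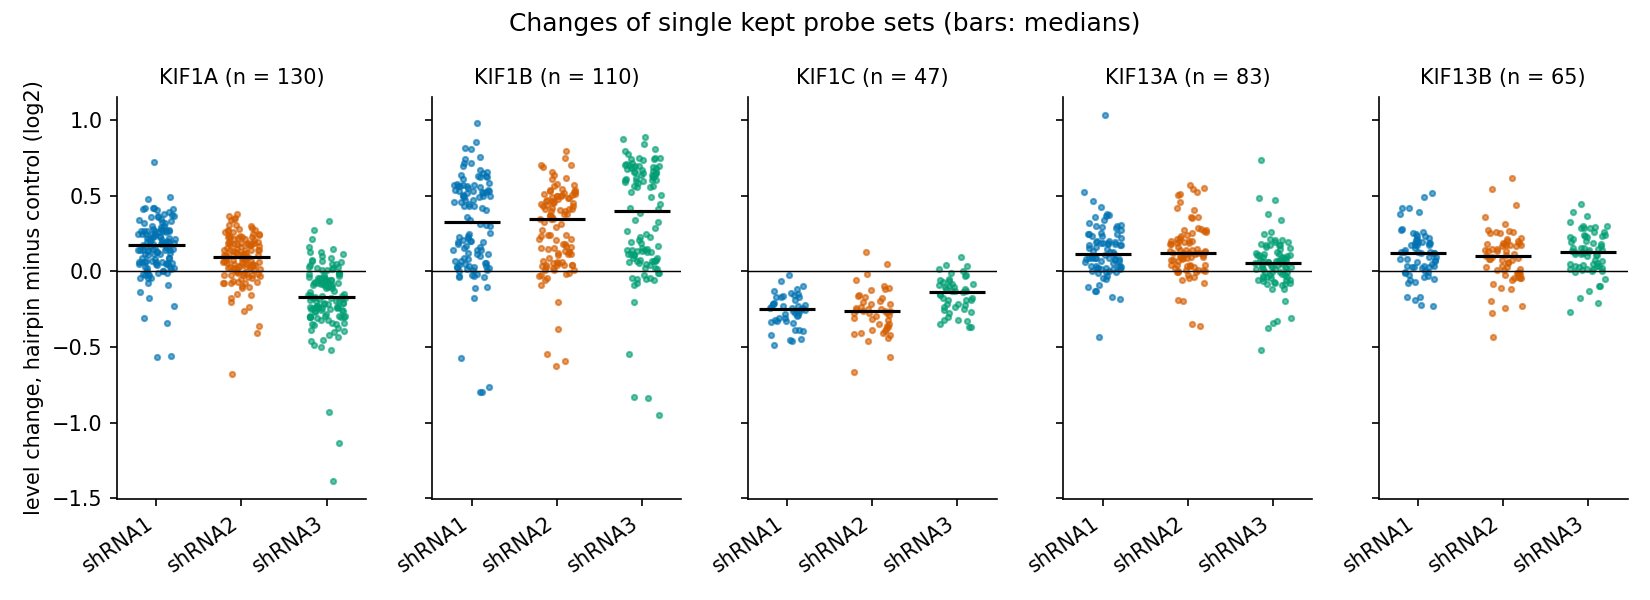
Level change (log2, hairpin minus control) of every kept probe set of the 5 genes, with shRNA1, shRNA2 and shRNA3 side by side and bars at the medians. KIF1C lies almost wholly below 0. Most KIF1B points lie above 0, others lie near 0, and 4 probe sets lie well below it. The KIF1A points move from mostly above 0 with shRNA1 to mostly below 0 with shRNA3.

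KIF1A, the neuronal synaptic vesicle motor, moved in opposite directions with different hairpins. Gene values were 9.37, 9.40 and 9.37 in shRNA1 cells, 9.25, 9.31 and 9.35 in shRNA2 cells and 9.08, 9.01 and 9.06 in shRNA3 cells, against 9.16, 9.20 and 9.30 in control. The shRNA1 arrays stood above all control arrays, the shRNA3 arrays below them, and the shRNA2 arrays overlapped them. The changes were 0.16, 0.08 and -0.17 (SE 0.04 each), with adjusted p-values of 0.0281, 0.185 and 0.00896. Of the 5 member genes 4, 3 and 4 passed with shRNA1, shRNA2 and shRNA3, but these counts hold KIF1B, which chose the family. Without KIF1B the genes called were KIF1A, KIF1C and KIF13A with shRNA1, and KIF1C and KIF13A with shRNA2. With shRNA3 they were KIF1A, KIF1C and KIF13B. Of all genes 10.1%, 14.5% and 26.8% were called in these comparisons.

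The difference between hairpins was tested directly. KIF1A was lower with shRNA3 than with shRNA1 by 0.33 on the log2 scale (a difference of -0.33, adjusted p 0.000612), which is 79.7% of the shRNA1 level, and lower than with shRNA2 (difference -0.25, adjusted p 0.00340). Both calls held in every alternative tried. shRNA2 and shRNA1 differed by -0.07 (95% interval -0.16 to 0.01, adjusted p 0.463). KIF1A was the 1 member gene called in each of the comparisons of shRNA3 with another hairpin, where 7.1% and 3.56% of all genes were called, and no member gene was called between shRNA2 and shRNA1, where 1.19% were.

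Most single KIF1A probe sets went with the gene. Of 130 kept, 112 were higher and 18 lower with shRNA1, 98 higher and 32 lower with shRNA2, and 24 higher and 106 lower with shRNA3. The share of all probe sets in each direction was not counted for single comparisons. With all 3 hairpins 15 were higher and 9 lower, or 11.5% and 6.92%, beside 30.0% and 29.5% over all genes, and 106 were of mixed sign. Probe sets of 1 gene were read on the same arrays and are not replicates. The rise with shRNA1 lost its call without control replicate 1 (adjusted p 0.118), control replicate 2 (0.0822) or shRNA1 replicate 1, 2 or 3 (0.0777, 0.115 and 0.0578). The fall with shRNA3 lost it with the median as gene value (0.0686).

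Within KIF1A, 3 probe sets fell below the gene with shRNA3 by the splicing index. Over all members 4, 4 and 7 probe sets were called in this way with shRNA1, shRNA2 and shRNA3, all lower. All but these 3 were the KIF1B probe sets that chose the family, so nothing is read from those counts. Among the other 4 genes none was called with shRNA1 or shRNA2, and these 3 with shRNA3. Of all probe sets 0.129%, 0.22% and 0.195% were called in either direction with shRNA1, shRNA2 and shRNA3. Junction JUC02024679.hg.1 was at 7.61, 7.71 and 7.71 in shRNA1 cells, 7.95, 7.53 and 7.95 in shRNA2 cells and 6.57, 6.67 and 6.55 in shRNA3 cells, against 7.87, 8.10 and 7.97 in control. The 3 shRNA3 arrays stood far below the other 9, and close to the level cutoff of log2 6.53. The splicing index changed by -0.47, -0.26 and -1.22 (SE 0.11 each, adjusted p 0.111, 0.238 and 0.000605), and shRNA3 was below shRNA2 (difference -0.96, 1.95-fold, adjusted p 0.0179) and below shRNA1 (difference -0.76, adjusted p 0.0913).

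The difference of JUC02024679.hg.1 between shRNA3 and shRNA2 was the 1 member probe set call between hairpins, and it was a narrow one. It was lost without shRNA2 replicate 1 (adjusted p 0.0541), shRNA2 replicate 3 (0.0942), shRNA3 replicate 1 (0.0749) or shRNA3 replicate 3 (0.10), and with a replicate block (0.0594). The call was also lost with only the 2 groups in the fit (0.228) and with no filter on dim probe sets (0.0831). Without shRNA2 replicate 2, the lowest shRNA2 array, the difference of -0.76 between shRNA3 and shRNA1 passed instead (adjusted p 0.0319).

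Junction JUC02024696.hg.1 was at 7.31, 7.09 and 7.40 in shRNA1 cells, 7.83, 7.37 and 7.97 in shRNA2 cells and 6.92, 6.83 and 6.97 in shRNA3 cells, against 7.98, 7.64 and 7.89 in control. The shRNA1 and shRNA3 arrays lay below control and the shRNA2 arrays overlapped it. Splicing index changes were -0.73, -0.20 and -0.76 (adjusted p 0.0613, 0.497 and 0.0383). The change with shRNA1 passed as well with a replicate block (adjusted p 0.0296), without shRNA2 replicate 2 (0.0199), with trend and robust moderation (0.0444) and with the median of the other probe sets as reference (0.0380). Without shRNA2 replicate 2 the difference between shRNA3 and shRNA2 passed too (-0.75, adjusted p 0.0478). The shRNA3 call was lost without control replicate 1, 2 or 3 (adjusted p 0.111, 0.0588 and 0.112), shRNA1 replicate 1 or 3 (0.0553 and 0.0528) or shRNA3 replicate 1, 2 or 3 (0.132, 0.0817 and 0.0828), and with no filter on dim probe sets (0.103).

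Exon probe set PSR02047123.hg.1 was at 7.57, 7.22 and 7.41 in shRNA1 cells, 7.40, 7.07 and 7.39 in shRNA2 cells and 6.70, 6.63 and 7.15 in shRNA3 cells, against 7.46, 8.21 and 8.22 in control. Control replicate 1 stood apart from the other 2 control arrays and inside the knockdown range. The splicing index changes of -0.73, -0.77 and -0.97 had adjusted p-values of 0.141, 0.0725 and 0.0438, and the last was lost with a replicate block (0.0648) and without control replicate 2 or 3 (0.113 and 0.142), shRNA1 replicate 1, 2 or 3 (0.0563, 0.0578 and 0.0659), shRNA2 replicate 3 (0.0533) or shRNA3 replicate 1 or 2 (0.158 and 0.0964), with no filter on dim probe sets (0.112) and with only 2 groups in the fit (0.102). The change with shRNA2 passed without control replicate 1 (adjusted p 0.0444) and with the median reference (0.0477).

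**Figure D5:**
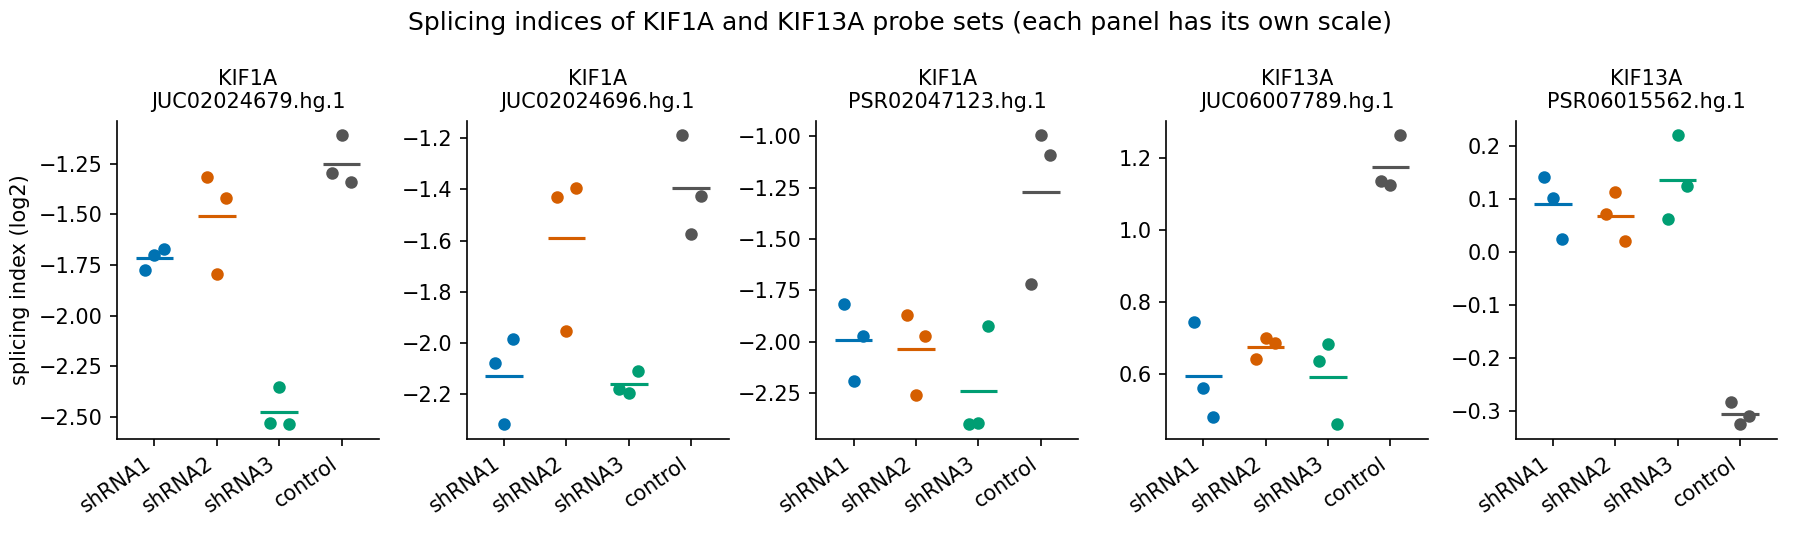
Splicing index (log2, relative to the rest of the gene) of 3 KIF1A and 2 KIF13A probe sets on the 12 arrays, each panel with its own scale and groups in the order shRNA1, shRNA2, shRNA3, control. Points are arrays and bars are means of 3; JUC02024679.hg.1 is lowest with shRNA3, and in both KIF13A panels the knockdown arrays lie on 1 side of the control arrays.

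KIF13A, the endosomal motor, rose with shRNA1 and shRNA2. Gene values were 8.61, 8.66 and 8.64 in shRNA1 cells, 8.61, 8.64 and 8.69 in shRNA2 cells and 8.54, 8.61 and 8.50 in shRNA3 cells, against 8.47, 8.49 and 8.54 in control. The shRNA1 and shRNA2 arrays lay above control and the shRNA3 arrays overlapped it. The changes were 0.14, 0.15 and 0.05 (SE 0.04 each), with adjusted p-values of 0.0321, 0.0184 and 0.297. The differences of shRNA3 from shRNA1 and shRNA2 were -0.09 each (adjusted p 0.128 and 0.167).

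These KIF13A calls were not stable. Over the alternatives the adjusted p ran from 0.0224 to 0.161 with shRNA1 and from 0.0128 to 0.0752 with shRNA2. The call with shRNA1 was lost when any 1 control array (adjusted p 0.117, 0.0822 and 0.0501) or any 1 shRNA1 array (0.0656, 0.134 and 0.0727) was left out, and that with shRNA2 was lost without control replicate 1 (0.0752), shRNA2 replicate 2 (0.0525) or shRNA2 replicate 3 (0.0533).

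In KIF13A, 2 probe sets moved relative to the gene with an adjusted p below 0.05 for each hairpin but stayed under the 1.5-fold limit for a call. The share of all probe sets that did so was not counted, so nothing is read from their number, and they are described singly. Junction JUC06007789.hg.1 was at 9.34, 9.21 and 9.12 in shRNA1 cells, 9.24, 9.33 and 9.36 in shRNA2 cells and 9.17, 9.28 and 8.96 in shRNA3 cells, against 9.59, 9.60 and 9.79 in control. No knockdown array reached control, while the gene value itself was higher. Its splicing index changed by -0.58, -0.50 and -0.58 (SE 0.08 each, 1.49-, 1.41- and 1.49-fold), with adjusted p-values of 0.0122, 0.0240 and 0.0112. Leaving out control replicate 1 or 2 brought shRNA1 and shRNA3 past the limit (-0.60 with an adjusted p between 0.0307 and 0.0468), as did leaving out shRNA1 replicate 1 for shRNA1 (-0.65, 0.00988) and shRNA3 replicate 2 for shRNA3 (-0.62, 0.0244). With the median of the other probe sets as reference both passed (-0.63 and -0.59, adjusted p 0.00609 and 0.00918), and with the filter at the 60th percentile shRNA3 did (-0.59, 0.00384).

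Exon probe set PSR06015562.hg.1 moved the other way. It was at 8.75, 8.76 and 8.66 in shRNA1 cells, 8.68, 8.75 and 8.71 in shRNA2 cells and 8.60, 8.82 and 8.63 in shRNA3 cells, against 8.19, 8.17 and 8.23 in control. The groups did not overlap, and the 3 control arrays lay close together. The level changes were 0.53, 0.52 and 0.49, and the splicing index changes 0.40, 0.37 and 0.44 (SE 0.06 each, adjusted p 0.0180, 0.0213 and 0.00864). Junction JUC06007794.hg.1 had changes in splicing index of 0.91, 0.41 and 0.69, which did not pass (adjusted p 0.0663, 0.255 and 0.10). The change with shRNA1 did pass without shRNA2 replicate 1 (0.0292) and with trend and robust variance moderation (0.0403).

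KIF13B, the DLG1-binding motor, was higher with each hairpin by about the same amount, and passed with shRNA3 alone. Gene values were 8.16, 8.17 and 8.07 in shRNA1 cells, 8.05, 8.17 and 8.12 in shRNA2 cells and 8.14, 8.15 and 8.14 in shRNA3 cells, against 7.98, 8.03 and 8.04 in control. Every knockdown array stood above the control arrays, shRNA2 replicate 1 by the least. The changes were 0.11, 0.10 and 0.12 (SE 0.04 each), with adjusted p-values of 0.0805, 0.114 and 0.0321. The call with shRNA3 was lost without control replicate 1, 2 or 3 (adjusted p 0.113, 0.0557 and 0.0564) or shRNA3 replicate 1, 2 or 3 (0.0905, 0.0640 and 0.0694), and without shRNA2 replicate 1 both shRNA1 and shRNA2 passed (0.0485 and 0.0346). The hairpins differed from each other by -0.02, 0.01 and 0.03 (adjusted p 0.872, 0.879 and 0.707).

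No KIF13B probe set was called by splicing index. Exon probe set PSR08014135.hg.1 was at 7.33, 7.24 and 7.34 in shRNA1 cells, 6.98, 7.20 and 6.93 in shRNA2 cells and 7.20, 7.27 and 7.41 in shRNA3 cells, against 7.48, 7.49 and 7.43 in control. The shRNA2 arrays were the lowest. Its splicing index changed by -0.28, -0.54 and -0.30, of which shRNA2 had an adjusted p below 0.05 (0.0185, 1.45-fold). Without shRNA2 replicate 2 the change of -0.59 passed both limits (adjusted p 0.0273), as did that of -0.61 with the median reference (0.0166). PSR08014138.hg.1 changed by 0.31, 0.45 and 0.33, with an adjusted p of 0.0346 for shRNA2.

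The other kinesin-3 genes did not pass with any hairpin. KIF14, a mitotic kinesin-3, changed by -0.04, -0.03 and -0.08 with shRNA1, shRNA2 and shRNA3 (adjusted p 0.774, 0.813 and 0.363). KIF16B, which moves early endosomes, changed by 0.04, -0.01 and -0.002 (0.572, 0.900 and 0.963), and STARD9, a centrosomal kinesin-3, by 0.10, 0.09 and 0.08 (0.384, 0.394 and 0.411). All 3 kept an adjusted p above 0.05 in every alternative tried.

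Of 40 listed adaptors, cargo and regulators of kinesin-3 motors 34 were measured. With shRNA1 3 rose and 2 fell, with shRNA2 3 rose and 4 fell, and with shRNA3 2 rose and 5 fell, which is 14.7%, 20.6% and 20.6% called beside 10.1%, 14.5% and 26.8% of all genes. The list medians were -0.02, -0.01 and -0.03, beside -0.01, 0.002 and 0.02 over all genes. RAB6A, a Golgi GTPase that binds KIF1C, rose with all 3 hairpins by 0.21, 0.22 and 0.22 (adjusted p 0.00309, 0.00239 and 0.00119), which 2.5% of all genes did. It was at 10.06, 10.11 and 10.14 in shRNA1 cells, 10.13, 10.08 and 10.11 in shRNA2 cells and 10.13, 10.12 and 10.07 in shRNA3 cells, against 9.84, 9.89 and 9.94 in control, with no overlap.

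BORCS7, a subunit of the BORC complex that links lysosomes to kinesins, with shRNA1 fell by 0.33 and with shRNA2 fell by 0.36 (adjusted p 0.0210 and 0.0107), and was at -0.20 with shRNA3 (0.0727). Its call with shRNA1 was lost without control replicate 1 (0.0870) or shRNA1 replicate 1 or 2 (0.0969 and 0.0544), and that with shRNA2 without shRNA2 replicate 2 (0.0555). With no filter on dim probe sets both BORCS7 calls were lost (0.133 and 0.0987), and that with shRNA1 also with the median as gene value (0.0714). The shRNA3 value passed without control replicate 2 (0.0475) or shRNA2 replicate 2 (0.0486). PPFIA4, a liprin of the family that binds KIF1A, rose with shRNA1 and shRNA3 by 0.18 and 0.24 (0.0371 and 0.00421) and was at 0.15 with shRNA2 (0.0560). The PPFIA4 call with shRNA1 was lost without control replicate 1 or 3, shRNA3 replicate 3 or any 1 shRNA1 array (adjusted p up to 0.133) and with the filter at the 60th percentile (change 0.03, adjusted p 0.734), and shRNA2 passed without control replicate 2 (0.0294) or shRNA2 replicate 1 or 3 (0.0368 and 0.0391). With the median as gene value the PPFIA4 call with shRNA1 was lost as well (0.224), and with exon probe sets alone shRNA2 passed (0.0406). BORCS6 of the same BORC complex as BORCS7 was at -0.16, -0.14 and -0.12, none of which passed, although shRNA1 did without shRNA1 replicate 3 (0.0356).

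Among 20 other transport kinesins 3 rose with shRNA1, and 4 rose and 1 fell with each of shRNA2 and shRNA3. These are 15%, 25% and 25% of the list, beside 10.1%, 14.5% and 26.8% of all genes. The list medians were 0.03, 0.03 and 0.04. KIF5C and KIF5A, neuronal heavy chains of conventional kinesin, rose with all 3 hairpins. KIF5C was at 9.00, 9.03 and 8.98 in shRNA1 cells, 8.74, 8.87 and 8.84 in shRNA2 cells and 9.05, 9.01 and 9.00 in shRNA3 cells, against 8.50, 8.56 and 8.62 in control. The groups did not overlap, and the changes were 0.44, 0.26 and 0.46 (adjusted p 4.48e-05, 0.00168 and 2.25e-05). KIF5A changed by 0.30, 0.12 and 0.31 (0.000200, 0.0283 and 8.5e-05), and its call with shRNA2 was lost without control replicate 1 or 3 (0.113 and 0.0590) or shRNA2 replicate 2 or 3 (0.0521 and 0.0719). That call was also lost with only 2 groups in the fit (0.116), with the median as gene value (0.0778) and with no filter on dim probe sets (0.0554).

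KIF3B, a subunit of kinesin-2, with shRNA2 fell by 0.19 and with shRNA3 fell by 0.18 (adjusted p 0.0350 and 0.0292), and was at -0.13 with shRNA1 (0.155). Both KIF3B calls were lost without any 1 control array (0.0617 to 0.0915), that with shRNA2 also without shRNA2 replicate 2 (0.115) and that with shRNA3 also without any 1 shRNA3 array (0.0551 to 0.0945), and shRNA1 passed without shRNA2 replicate 2 (0.0300). With no filter on dim probe sets both KIF3B calls were lost too (0.121 and 0.0642). With the median as gene value KIF3B was at -0.06 with shRNA3 (0.569). With only 2 groups in the fit its shRNA2 call was lost (0.117) and shRNA1 passed (0.0221). KIF9 did not pass with any hairpin, though with exon probe sets alone it was at -0.16 with both shRNA1 and shRNA2 and passed (0.0241 and 0.0185). Of 16 mitotic kinesins 15 were measured, and 1 was called with each hairpin, or 6.67%. Of all genes 10.1%, 14.5% and 26.8% were called with shRNA1, shRNA2 and shRNA3. KIF4A, a chromosome-binding kinesin, with shRNA2 fell by 0.15 and with shRNA3 fell by 0.17 (0.0235 and 0.00821), and KIF15, a spindle motor, rose with shRNA1 by 0.16 (0.0197). KIF4A lost its call with shRNA2 without control replicate 1 or 3 or shRNA2 replicate 2 (0.0807, 0.0766 and 0.103), and KIF15 lost it without control replicate 1 or 3 or shRNA1 replicate 1 or 2 (0.0835, 0.0579, 0.0776 and 0.110). The KIF4A call with shRNA2 was lost too with no filter on dim probe sets (0.0621) and with only 2 groups in the fit (0.0840). That of KIF15 was lost with the median as gene value (0.480). KIF2C did not pass with any hairpin, nor did KIF18A, except with shRNA3 when control replicate 3 (0.0495) or shRNA3 replicate 2 (0.0470) was left out.

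Probe sets whose pattern over the 12 arrays was most like that of KIF1B's PSR01001992.hg.1 were looked up by Pearson correlation of splicing indices among 8348 candidates whose index spanned at least 1 on the log2 scale. The arrays fall into groups and share control, so these values describe likeness and carry no test. The highest were PSR15018665.hg.1 of TM2D3 (0.973), JUC14004405.hg.1 of MARK3 (0.969), JUC06013835.hg.1 of LATS1 (0.965), JUC17012489.hg.1 of SLC35B1 (0.960) and JUC12000104.hg.1 of WNK1 (0.955). The most opposite were junction JUC01022409.hg.1 of LRP8 (-0.963), JUC12013357.hg.1 of NDUFA12 (-0.962), JUC01018053.hg.1 of CLSTN1 (-0.957), PSR05009703.hg.1 of FAM53C (-0.949) and JUC06011728.hg.1 of MAP3K7 (-0.945). LATS1, a kinase of the Hippo pathway, had splicing index changes of -1.38, -1.01 and -1.54, and CLSTN1, a kinesin-1 cargo adaptor, of 1.02, 0.87 and 1.1 with shRNA1, shRNA2 and shRNA3. By gene value, the genes most like KIF1B among 468 candidates spanning at least 0.5 were PCK2 (0.977), HSD17B8 (0.966), MRC2 (0.966), AK7 (0.966) and DDIT4 (0.964).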

How the data were processed

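RNA of 293T cells was measured on 12 exon and junction arrays, 3 in each of 4 groups. Per the submitters' processing notes, Affymetrix Expression Console and the RMA method produced the values; no version, setting or genome build is given in the sources used here. Judged by their range, the authors deposited log2 values, and these were used unchanged. Array depth does not apply; the number of arrays limits the precision.

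Of 913055 probe sets 573909 measured exons and 339146 junctions, and 1530 control rows were left out. Genes were built from the 672085 probe sets that had a single gene symbol. Symbols were updated through RefSeq gene names (GRCh38.p14, for names only), and 26130 identical copies within a gene were counted once. Kept probe sets had a mean above the 40th percentile. Gene values needed at least 3 of them (16648 genes) and splicing indices at least 4 (417377 probe sets in 15891 genes).

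Tests were two-sided, by lmFit and eBayes of limma 3.58.1 under R 4.3.3 (tables read with version 1.17.8 of data.table), with the 4 groups fitted together without a block (8 residual degrees of freedom). P-values were adjusted by Benjamini-Hochberg across every feature in a comparison. A gene was called at an adjusted p below 0.05, a splicing index also at 1.5-fold or more. "Rose" and "fell" are written of calls. The steps were tested on simulated data. Figures were drawn with matplotlib 3.10.9 in Python 3.11.15.

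Same-numbered control and shRNA2 arrays deviated together over genes (correlations of 0.20 to 0.43), those of the other pairs of groups did not all do so, so a block by replicate number is given beside a result where it changed a call.

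Named were the 5 members and RBFOX2, the 3 other kinesin-3 genes, the 2 highest and 2 lowest of each other list by mean change, and member probe sets called in any comparison or among the 3 highest or lowest of their gene by mean splicing index change. Members, lists and tests were chosen with earlier results of these data known. The alternatives were other filters, copies kept, only 2 groups, a replicate block, other variance moderation, centred arrays, other gene values and references, no fold limit and each array left out.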

Additional observations from a re-analysis of the deposited data

Results flagged for a closer look

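KIF1A gave opposite changes with different hairpins against the same control arrays, and the tests of the difference passed. With shRNA3 its gene value differed by -0.33 from that with shRNA1 and by -0.25 from that with shRNA2 (limma adjusted p 0.000612 and 0.00340). RBFOX2 differed between the same hairpins by 0.29 and -0.28, so KIF1A was lowest with the hairpin of intermediate RBFOX2 level. The splicing index of KIF1A junction JUC02024679.hg.1 differed by -0.96 between shRNA3 and shRNA2 (adjusted p 0.0179), a call lost in 7 of 20 alternatives.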

How the results depend on the processing

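RBFOX2 kept its direction and its call against control in all 21 alternatives, and no value reversed a call. The count of member genes called with shRNA3 was 2 with the median as gene value, and that for shRNA3 minus shRNA1 was 2 with only these arrays in the fit (KIF1A and KIF1C). Member probe sets called by splicing index, those of KIF1B included, numbered, with no filter on dim probe sets, 1 with shRNA2, 0 for shRNA3 minus shRNA2 and 1 with all 3 hairpins. With a filter at the 60th percentile they numbered 2, 2 and 3 with shRNA1, shRNA2 and shRNA3, 0 for shRNA3 minus shRNA2 and 2 with all 3. With only 2 groups in the fit there were 0 with shRNA2, 0 for shRNA3 minus shRNA2 and 0 with all 3. With no fold limit 14 passed with shRNA1, 17 with shRNA2, 36 with shRNA3 and 1 for shRNA3 minus shRNA1, and with the median of the other probe sets as reference 7 with shRNA1. The share of all probe sets passing with no fold limit was not counted, so nothing is read from those counts. With the replicate block there were 0 for shRNA3 minus shRNA2, and beyond the probe sets named above with a block, it changed no other call. Leaving out each array in turn gave 2 to 5 member genes with shRNA1, and 0 to 4 member probe sets with shRNA2, 0 to 1 for shRNA3 minus shRNA1, 0 to 2 for shRNA3 minus shRNA2 and 0 to 4 with all 3. The causes of these changes were not tested, except that fits of fewer arrays hold fewer residual degrees of freedom. In all, 299 alternative counts and RBFOX2 values stayed within 1.5 times or on their side of the threshold and 36 did not. The 3 arrays a group limit the precision, and PSR01001992.hg.1, like JUC02024679.hg.1 with shRNA3, lay near the log2 cutoff of 6.53.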
